A study of Capra hircus with 6 samples.

Results

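Autophagy receptor and conjugation genes were examined in secondary hair follicle dermal papilla cells (SHF-DPCs) of cashmere goats, with and without all-trans retinoic acid (ATRA), the vitamin A metabolite that activates retinoic acid receptors. The members are the 10 genes SQSTM1, NBR1, MAP1LC3B, GABARAPL1, GABARAPL2, ULK1, BECN1, WIPI1, ATG12 and ATG5, chosen by name, among 15944 genes listed. Each had its own row in the count table, and all 10 were among the 12588 genes that passed the filter on low counts. RNA-seq libraries came from primary cultures of wild-type cells, 3 cultured in standard medium (control group) and 3 given ATRA (ATRA-treated group). The methods state that the cells were from scapular skin of healthy Albas cashmere goats aged 3 years, taken in the growing phase of the coat, and were used at passages 4 to 7 in medium with 10% serum. The methods name 3 animals for the sequenced cultures and ATRA at 100 µM for 24 h. The labels do not say which animal gave which library, so p-values cover the spread between these libraries only.

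Autophagy delivers parts of the cytoplasm to the lysosome in a vesicle with a double membrane, the autophagosome. The ULK1 kinase complex starts the process, the lipid kinase complex that contains beclin 1 marks the membrane with PI3P, and WIPI proteins bind that lipid. A pair of ubiquitin-like conjugation systems, one of which joins ATG12 to ATG5, then attaches proteins of the Atg8 family (LC3 and GABARAP proteins) to the membrane, where cargo receptors such as p62, the product of SQSTM1, and NBR1 dock with their ubiquitinated load. In the follicle, dermal papilla cells sit at the base and steer hair growth. Transcript counts of the cultured cells give the abundance of the messenger RNAs and carry no information on the flow of material through the pathway.

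Control libraries held 36887160 to 38012771 counts in total, and ATRA libraries 35532339 to 36870939. Levels are given as normalized CPM, counts scaled to a common library size (CPM) after TMM adjustment, which aligns the libraries on the bulk of their genes. The mean scaling factor was 0.847 in the control group and 1.18 with ATRA. Over all tested genes the log₂ fold change (log₂FC) had a median of 0.04, which became 0.52 with library size alone. Of 14 dermal papilla and fibroblast markers with a row, 5 (ALPL, SOX2, PROM1, CORIN and NOG) stayed under 1 CPM in every library. The other 9 were lower in every ATRA library than in every control library, as were 39.0% of all tested genes. The summed level of the list went from between 56748 and 59493 CPM to between 2436 and 2515 CPM. Most of the control sum was COL1A1 (27299 to 27529 CPM), VIM (18422 to 20127 CPM) and ACTA2 (6206 to 7098 CPM), so it mainly follows these genes. The log₂FC of the 9 ran from -9.62 (ACTA2) to -2.74 (PDGFRA), -0.54 (LEF1) and -0.23 (FGF7). Leukocyte markers summed to between 9.24 and 12.9 CPM in the control group and between 41.3 and 44.2 CPM with ATRA, through CD14 and CD68, with CD3E and CSF1R under 1 CPM throughout. Keratinocyte markers summed to between 3.11 and 4.98 CPM in the control group and between 5.37 and 5.97 CPM with ATRA, and endothelial markers to between 0.903 and 1.24 CPM and between 6.19 and 9.16 CPM. The keratinocyte rise came through KRT10, while KRT5 and KRT14 stayed under 1 CPM and were lower with ATRA. The endothelial rise came mainly through PECAM1, from 0 CPM to between 4.98 and 7.71 CPM. TEK was also higher, KDR was lower, and VWF and CDH5 stayed under 1 CPM. PMEL, the 1 melanocyte marker of 5 with a row, lay between 3.80 and 4.26 CPM in the control group and between 1.97 and 2.34 CPM with ATRA. The part of these shifts in the results below was not tested. In bulk RNA, fewer cells of a type and less RNA per cell cannot be told apart.

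ATRA-treated cells held more transcript of 7 of the 10 genes. SQSTM1 rose most, by 11.7-fold, followed by GABARAPL1 (6.42-fold), ULK1 (3.48-fold) and WIPI1 (2.48-fold), with smaller rises of NBR1, ATG12 and MAP1LC3B. GABARAPL2, BECN1 and ATG5 did not pass the test. These 7 had an adjusted p under 0.05 in edgeR's quasi-likelihood test, a share of 70% beside 40.9% of all tested genes that rose by this rule. The fold rule took the thresholds of the study's methods (|log₂FC| above 1 with an unadjusted p under 0.05). It was applied to edgeR's values, where the methods name R's t.test function. By this rule 4 of 10 rose, or 40%, beside 13.7% of all tested genes, and 0 fell, beside 17.3%. In 7 of 10 every ATRA library exceeded every control library, as in 41.2% of all tested genes. In edgeR with TMM scaling no member fell, by adjusted or unadjusted p (0 of 10 each), beside 38.7% of all genes lower by adjusted p. BECN1 was called lower by edgeR with RLE scaling, by DESeq2 and by R's t.test function (1 member each), and BECN1 and ATG5 by edgeR without ATRA replicate 2. The median log₂FC of the 10 genes was 0.48, beside 0.04 over all genes tested. The genes were chosen by name with earlier results of these data known, so these shares describe them and are not a test.

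**Figure D1:**
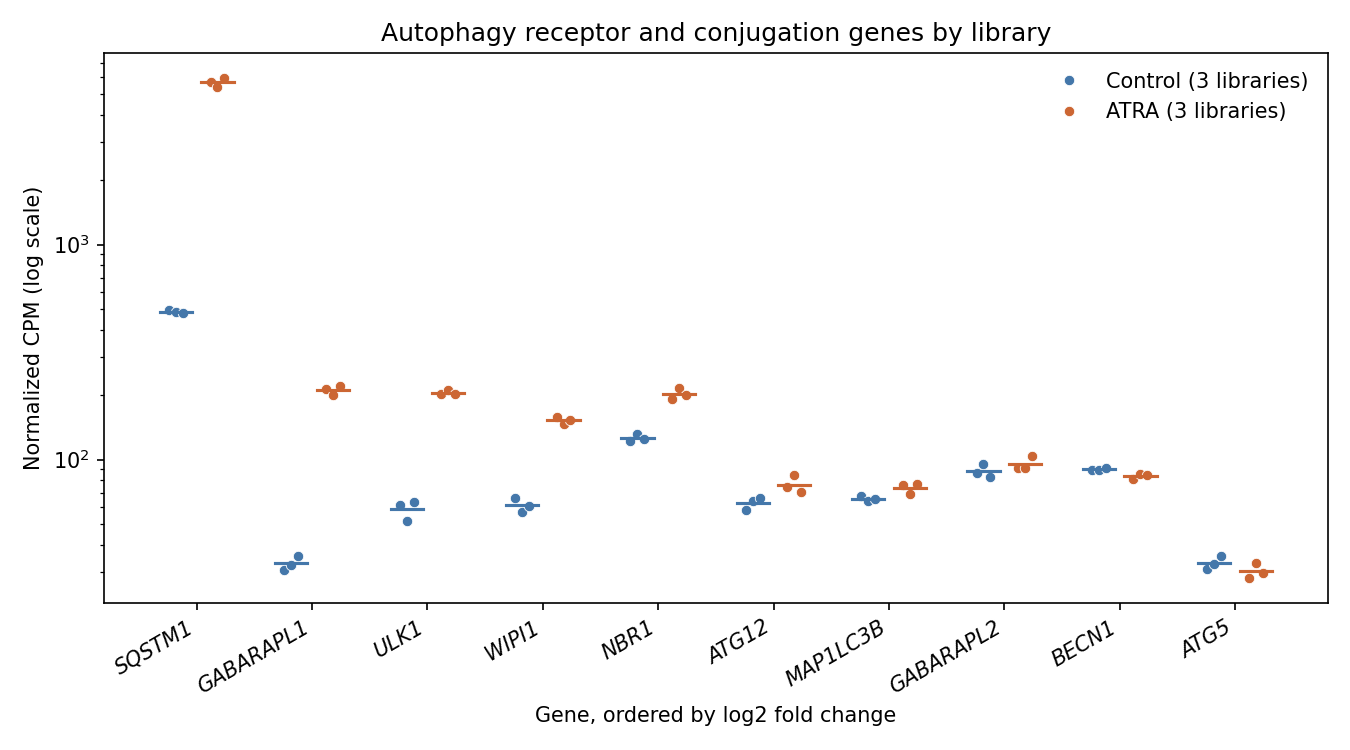
Normalized CPM (log axis) of the 10 genes in each of 3 control and 3 ATRA libraries, with a line at the mean of each group. The ATRA libraries of SQSTM1 sit between 5422 and 5965 CPM, far above the control libraries between 480.0 and 495 CPM, while those of GABARAPL2 and ATG5 overlap the controls.

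Among the 10 genes, the cargo receptor gene SQSTM1 had the largest change. SQSTM1 encodes p62, which binds ubiquitin chains and Atg8 proteins and is itself degraded by autophagy. It had 495, 487 and 480.0 normalized CPM in the control libraries and 5698, 5422 and 5965 CPM in the ATRA libraries. Every ATRA library lay more than 10 times above every control library, and the spread within a group was small (coefficient of variation 1.51% and 4.77%). The log₂FC was 3.55 (standard error 0.0648, edgeR, adjusted p = 5.22e-19), the 237th highest of all genes tested. Of all reads counted in a library, SQSTM1 took 0.0413% ± 0.000458 (SD) without ATRA and 0.672% ± 0.0230 (SD) with it, over 3 libraries each.

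NBR1 encodes the other receptor of the set, a partner of p62 with a similar domain plan. It had 122, 132 and 125 CPM in the control libraries and 190.3, 216 and 199 CPM in the ATRA libraries. The groups stood apart, and the highest control library lay well below the lowest ATRA library. Its rise was 1.60-fold (log₂FC 0.68, standard error 0.0605, edgeR, adjusted p = 8.21e-09), short of the fold rule.

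The members of the Atg8 family, the small ubiquitin-like proteins that are attached to the membrane, differed among themselves. GABARAPL1 had 30.6, 32.3 and 35.6 CPM in the control libraries and 213, 199 and 221 CPM in the ATRA libraries. All ATRA libraries were far above all control libraries, and GABARAPL1 had the second largest change of the set (log₂FC 2.68, standard error 0.0691, edgeR, adjusted p = 6.26e-17). GABARAPL2, also known as GATE-16, had 86.6, 95.6 and 83.2 CPM in the control libraries and 91.2, 91.3 and 104 CPM in the ATRA libraries. Control replicate 2 exceeded 2 of the ATRA libraries, so the groups overlapped. The log₂FC of GABARAPL2 was 0.11 (95% confidence interval -0.0360 to 0.26, edgeR, adjusted p = 0.153), which leaves room for a small change in either direction. With library size alone it was 0.59 (adjusted p = 7.58e-07), and with upper-quartile scaling 0.19 (adjusted p = 0.0204).

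MAP1LC3B encodes LC3B, the Atg8 protein most used as a marker of autophagosomes. It had 67.7, 63.8 and 65.7 CPM in the control libraries and 75.9, 69.1 and 77.1 CPM in the ATRA libraries. The groups did not overlap, but ATRA replicate 2 came close to control replicate 1. The rise was 1.13-fold (log₂FC 0.17, standard error 0.0637, edgeR, adjusted p = 0.0200). This call was lost without control replicate 2 (adjusted p = 0.0766), control replicate 3 (0.0623), ATRA replicate 1 (0.0759) or ATRA replicate 3 (0.110), and with R's t.test function (0.0746).

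The ratio of counts of 2 genes in the same library does not depend on how libraries are scaled. Its size also reflects the lengths of the transcripts, so only its change between groups was read. For 6 ratios fixed among the members, the change was tested with an exact permutation test (two-sided, smallest possible p = 0.1 with 3 against 3 libraries, so that none can pass 0.05). The log2 ratio of GABARAPL1 to GABARAPL2 was -1.50, -1.56 and -1.23 in the control libraries and 1.22, 1.12 and 1.09 in the ATRA libraries. GABARAPL1 thus went from fewer counts than its paralog to more, a 5.96-fold change of the ratio (log2 difference 2.57, standard error 0.111, exact permutation p = 0.1, adjusted 0.12 over the 6 ratios). Against MAP1LC3B, GABARAPL1 gained 5.71-fold (log2 difference 2.51, standard error 0.0767, exact permutation p = 0.1). GABARAPL2 against MAP1LC3B had a log2 ratio of 0.43 ± 0.137 (SD) without ATRA and 0.37 ± 0.0889 (SD) with it, over 3 libraries each, and the groups overlapped. The difference of -0.0608 had a standard error of 0.0941 (exact permutation p = 0.6), and it turned to 0.0179 without control replicate 2.

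**Figure D2:**
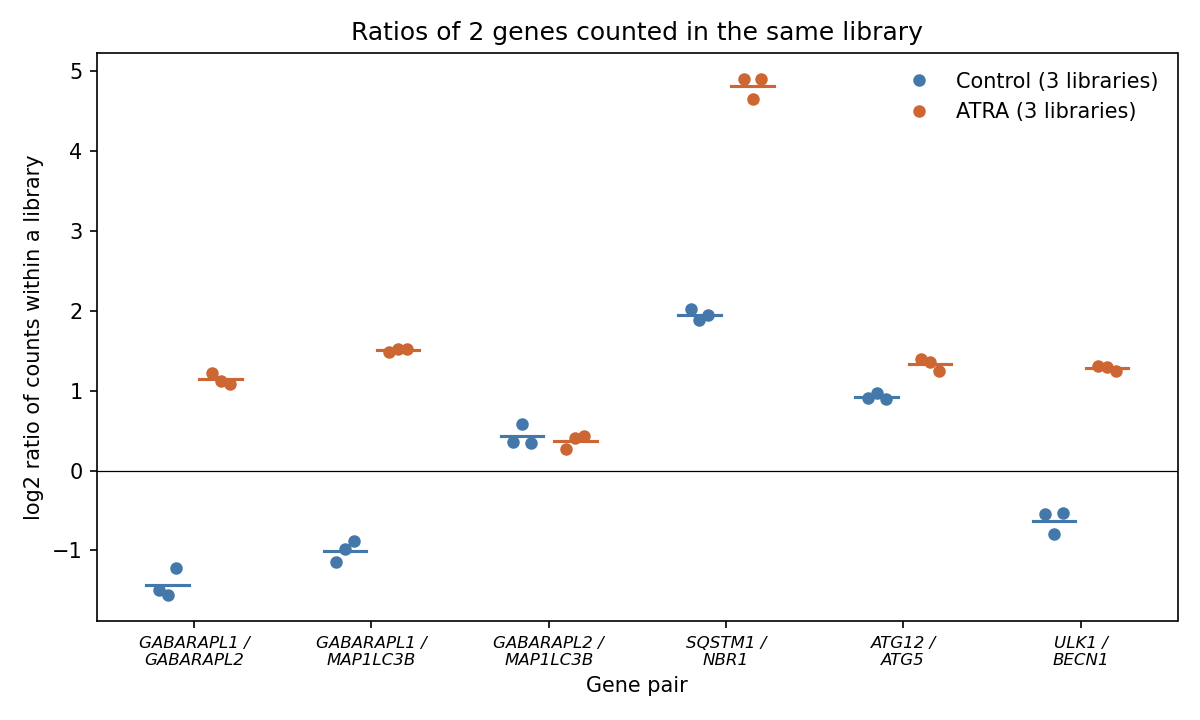
log2 ratio of the counts of 2 genes within each of the 3 control and 3 ATRA libraries, with a line at each group's mean. The ratio's height also reflects transcript length. For 5 of 6 pairs all ATRA libraries lie above all control libraries, by 0.41 (ATG12 to ATG5) to 2.87 (SQSTM1 to NBR1), and for GABARAPL2 to MAP1LC3B they overlap.

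Among the genes that start autophagosome formation, the kinase and the lipid reader rose. ULK1 encodes the serine/threonine kinase that receives signals from mTORC1 and AMPK. It had 61.1, 51.6 and 63.4 CPM in the control libraries and 201, 210.1 and 201 CPM in the ATRA libraries. Control replicate 2 was lowest, and every ATRA library exceeded 3 times every control library (log₂FC 1.80, standard error 0.0705, edgeR, adjusted p = 3.47e-14).

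WIPI1 encodes a propeller protein that binds PI3P on the forming membrane. It had 66.3, 57.2 and 60.8 CPM in the control libraries and 157, 146 and 153 CPM in the ATRA libraries. The groups stood clearly apart, with a log₂FC of 1.31 (standard error 0.0644, edgeR, adjusted p = 1.11e-12). ULK1 and WIPI1 thus both met the fold rule.

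BECN1 encodes beclin 1, a subunit of the class III PI3-kinase complex. It had 89.5, 89.7 and 91.8 CPM in the control libraries and 81.4, 85.4 and 84.6 CPM in the ATRA libraries. All ATRA libraries were below all control libraries, as for 39.0% of all tested genes, but by little. The log₂FC was -0.11 (95% confidence interval -0.23 to 0.0113, edgeR, adjusted p = 0.0886). Its call depended on the setting, since BECN1 passed as lower with RLE scaling (adjusted p = 0.0464), DESeq2 (0.0472), R's t.test function (0.0321) or without ATRA replicate 2 (0.0418), and as higher with library size alone (log₂FC 0.37, adjusted p = 1.53e-05). Relative to BECN1 in the same library, ULK1 gained 3.76-fold. The log2 ratio of ULK1 to BECN1 was -0.55, -0.80 and -0.53 in the control libraries and 1.30, 1.30 and 1.25 in the ATRA libraries (exact permutation p = 0.1).

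The pair of conjugation genes parted slightly. ATG12, a ubiquitin-like protein, had 58.1, 64.1 and 66.0 CPM in the control libraries and 74.2, 84.5 and 70.7 CPM in the ATRA libraries. All ATRA libraries exceeded all control libraries, with ATRA replicate 2 highest, for a rise of 1.22-fold (log₂FC 0.29, standard error 0.0738, edgeR, adjusted p = 0.00176). With R's t.test function the adjusted p was 0.0633.

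ATG5, to which ATG12 is joined, had 31.0, 32.6 and 35.5 CPM in the control libraries and 28.1, 33.0 and 29.7 CPM in the ATRA libraries. The groups overlapped, since ATRA replicate 2 was above 2 of the control libraries. The log₂FC of ATG5 was -0.13 (95% confidence interval -0.30 to 0.0446, edgeR, adjusted p = 0.161). Without ATRA replicate 2 it was -0.20 (adjusted p = 0.0176), and with library size alone it turned to 0.35 (adjusted p = 0.00100). Within libraries the log2 ratio of ATG12 to ATG5 was 0.92 ± 0.0448 (SD) without ATRA and 1.34 ± 0.0759 (SD) with it, over 3 libraries each, a 1.33-fold change with no overlap (exact permutation p = 0.1). The ratio of SQSTM1 to NBR1 changed by 7.32-fold in the same test (log2 difference 2.87, standard error 0.0938, exact permutation p = 0.1).

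Ordered by log₂FC, the genes ran from SQSTM1 through GABARAPL1, ULK1, WIPI1, NBR1, ATG12, MAP1LC3B, GABARAPL2 and BECN1 to ATG5. The first 5 steps down this order, from SQSTM1 to ATG12, each exceeded 2 standard errors of the difference, as did the step from GABARAPL2 to BECN1 (0.22, standard error 0.0897). This error treats genes counted in the same libraries as independent, and the order came from the same values, so the steps are descriptive. ATG12 and MAP1LC3B (difference 0.11, standard error 0.0975), MAP1LC3B and GABARAPL2 (0.0620, standard error 0.0941), and BECN1 and ATG5 (0.0166, standard error 0.0989) did not differ beyond this error. In unscaled counts all 10 genes were higher in every ATRA library than in every control library, as were 60.5% of all genes tested. With library size alone all 10 also passed as higher (5 by the fold rule, NBR1 being the fifth), beside 62.9% of all genes. That setting moved the higher calls among all called genes from 51.4% to 73.5%. The direction of SQSTM1, GABARAPL1, ULK1, WIPI1, NBR1, ATG12, MAP1LC3B and GABARAPL2 was the same under every scaling tried, and the direction of BECN1 and ATG5 was not.

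**Figure D3:**
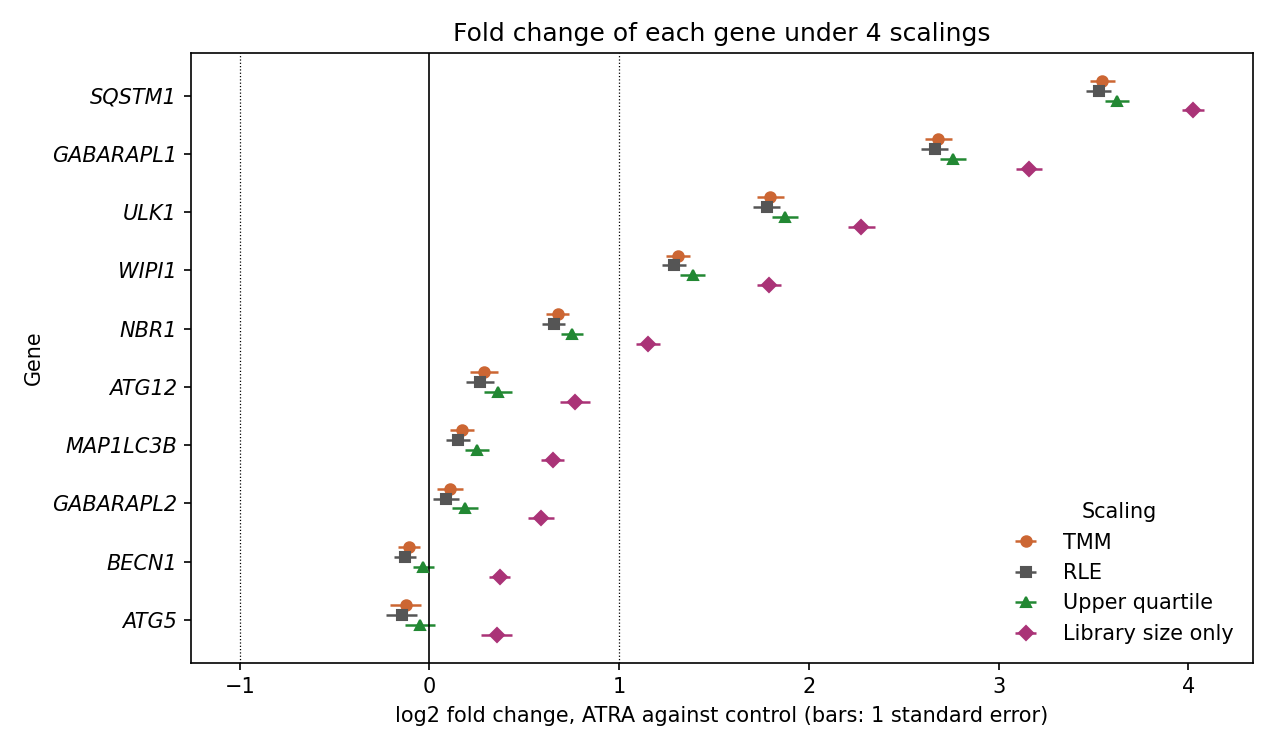
log₂FC of the 10 genes, ATRA-treated against control group, under 4 scalings, with bars of 1 standard error and dotted lines at the fold rule. Library size alone shifts all genes to the right by nearly the same amount, so that BECN1 and ATG5 go from -0.11 and -0.13 to 0.37 and 0.35, while SQSTM1 lies between 3.53 and 4.03 under all 4 scalings.

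The rest of the pathway was read from a list of 88 autophagy genes in 10 roles, which holds the 10 members and was written with earlier results of these data known. Of these, 85 were tested, 55 rose and 14 fell (64.7% and 16.5%, beside 40.9% and 38.7% of all tested genes), with a median log₂FC of 0.35. By the fold rule 19 rose and 3 fell (22.4% and 3.53%, beside 13.7% and 17.3%). Leaving out the 10 members, 48 of 75 rose and 14 fell, with the same median. With library size alone 74 of the 85 genes rose and 6 fell, where 62.9% of all tested genes rose.

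In the initiation complex around ULK1 all 5 genes rose, beside 40.9% of all tested genes. ATG13, its regulatory subunit, went from 47.6 ± 3.87 to 156 ± 0.758 CPM (SD, n = 3 each). Its log₂FC of 1.71 (standard error 0.0649) was close to the 1.80 of ULK1. RB1CC1, ATG101 and the paralog ULK2 had a log₂FC of 0.44, 0.39 and 0.17. In the class III PI3-kinase complex 6 of 7 tested genes rose (85.7%, beside the same 40.9%), and BECN1 was the 1 that did not pass. ATG14, which directs the complex to autophagosome formation, had a log₂FC of 1.30 (standard error 0.0971), and RUBCN, an inhibitor of the complex that holds beclin 1, had 1.07 (standard error 0.0949). Among PI3P effectors and lipid suppliers all 10 genes rose by adjusted p, again beside 40.9%, with a median log₂FC of 0.67. The groups of TMEM41B overlapped (log₂FC 0.23). WIPI1, at 1.31, stood beside the lipid transfer gene ATG2A (1.60, standard error 0.104), the scramblase gene VMP1 (1.31, standard error 0.0617) and WDR45, a relative of WIPI1 (1.16, standard error 0.0739).

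In the conjugation group 5 of 11 genes rose (45.5%, near the 40.9% of all tested genes) and 2 fell (18.2%, beside 38.7%). Those that fell were ATG10 (log₂FC -0.93, standard error 0.107) and ATG4A (-0.27, standard error 0.0789). ATG10 was lower in every ATRA library also in unscaled counts, while the unscaled counts of ATG4A overlapped between the groups. ATG12, at 0.29, lay above the group's median log₂FC of 0.14, and ATG5, at -0.13, below it. ATG4D, a protease that processes Atg8 proteins, rose from 11.1 ± 0.665 to 56.1 ± 2.23 CPM (SD, n = 3 each, log₂FC 2.33, standard error 0.0787). ATG16L2, a homolog of the scaffold that carries ATG12-ATG5, had a log₂FC of 1.24 (standard error 0.0843). In the Atg8 family GABARAPL1 and MAP1LC3B rose (33.3%), MAP1LC3C fell (16.7%), and 3 of 6 genes did not pass. MAP1LC3C, which encodes LC3C, had 39.2, 42.7 and 38.6 CPM in the control libraries and 1.78, 2.54 and 3.21 CPM in the ATRA libraries. Its log₂FC was -4.00 (standard error 0.135, edgeR, adjusted p = 7.66e-15), so that the family held both the 2.68 of GABARAPL1 and this decrease. MAP1LC3A and GABARAP had a log₂FC of 0.14 and 0.0269, close to those of MAP1LC3B and GABARAPL2.

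Among 14 tested cargo receptor genes 8 rose and 3 fell (57.1% and 21.4%, beside 40.9% and 38.7% of all tested genes). BNIP3, a receptor on mitochondria, was next to SQSTM1 in size, from 51.1 ± 1.64 to 460.5 ± 12.3 CPM (SD, n = 3 each, log₂FC 3.17, standard error 0.0594), and its relative BNIP3L had a log₂FC of 1.01 (standard error 0.0543). OPTN, a ubiquitin-binding receptor like p62 and NBR1, fell from 205 ± 4.40 to 79.1 ± 2.70 CPM (SD, n = 3 each, log₂FC -1.37, standard error 0.0560). CALCOCO2 and TAX1BP1, receptors of the same ubiquitin-binding kind, had a log₂FC of 0.42 and 0.40. Of 8 genes for fusion with the lysosome 2 rose and 3 fell (25% and 37.5%, the second near the 38.7% of all tested genes), with a median of 0.0488.

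Upstream of ULK1, 10 of 15 tested genes of mTORC1 and AMPK control rose and 4 fell. These shares of 66.7% and 26.7% stood beside 40.9% and 38.7% of all tested genes. DDIT4, an inhibitor of mTORC1, rose from 43.5 ± 2.50 to 462 ± 35.1 CPM (SD, n = 3 each, log₂FC 3.41, standard error 0.0710). Of the catalytic AMPK subunits, PRKAA1 had 36.8, 39.7 and 37.6 CPM in the control libraries and 28.6, 33.8 and 25.2 CPM in the ATRA libraries (log₂FC -0.38, standard error 0.0910, edgeR, adjusted p = 0.000970), while its unscaled counts overlapped between the groups. PRKAA2 was hardly detected without ATRA, at 4 to 6 counts per control library against 93 to 110 with ATRA, and passed the filter on low counts only through the ATRA libraries. The size of its log₂FC followed the constant added to low values (3.96 as fitted, 3.57 with a prior count of 2, and 1.54 on the log2(CPM + 1) scale). SESN3, which encodes a sestrin, had a log₂FC of 1.08 (standard error 0.111). MLST8, an mTOR subunit, fell with a log₂FC of -1.17 (standard error 0.0907). RHEB and MTOR also fell, with a log₂FC of -0.57 and -0.24, while the unscaled counts of MTOR were higher in every ATRA library. Among transcription factors of autophagy 3 of 5 rose and 1 fell (60% and 20%, beside 40.9% and 38.7% of all tested genes). MITF had a log₂FC of 1.33 (standard error 0.0921), and TFE3 and FOXO3 each had 0.36. FOXO1 fell (-0.64, standard error 0.0635), and TFEB did not pass (0.0582, edgeR, adjusted p = 0.615). The group labelled partners of p62 held KEAP1, NFE2L2, TBK1 and TRAF6, a label that does not mean direct binding of each. All 4 rose by adjusted p, beside 40.9% of all tested genes, but only 1, KEAP1, by the fold rule. The groups of TRAF6 overlapped (log₂FC 0.21, edgeR, adjusted p = 0.0358). KEAP1, which p62 binds, went from 61.0 ± 0.612 to 162 ± 5.76 CPM (SD, n = 3 each, log₂FC 1.41, standard error 0.0572).

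**Figure D4:**
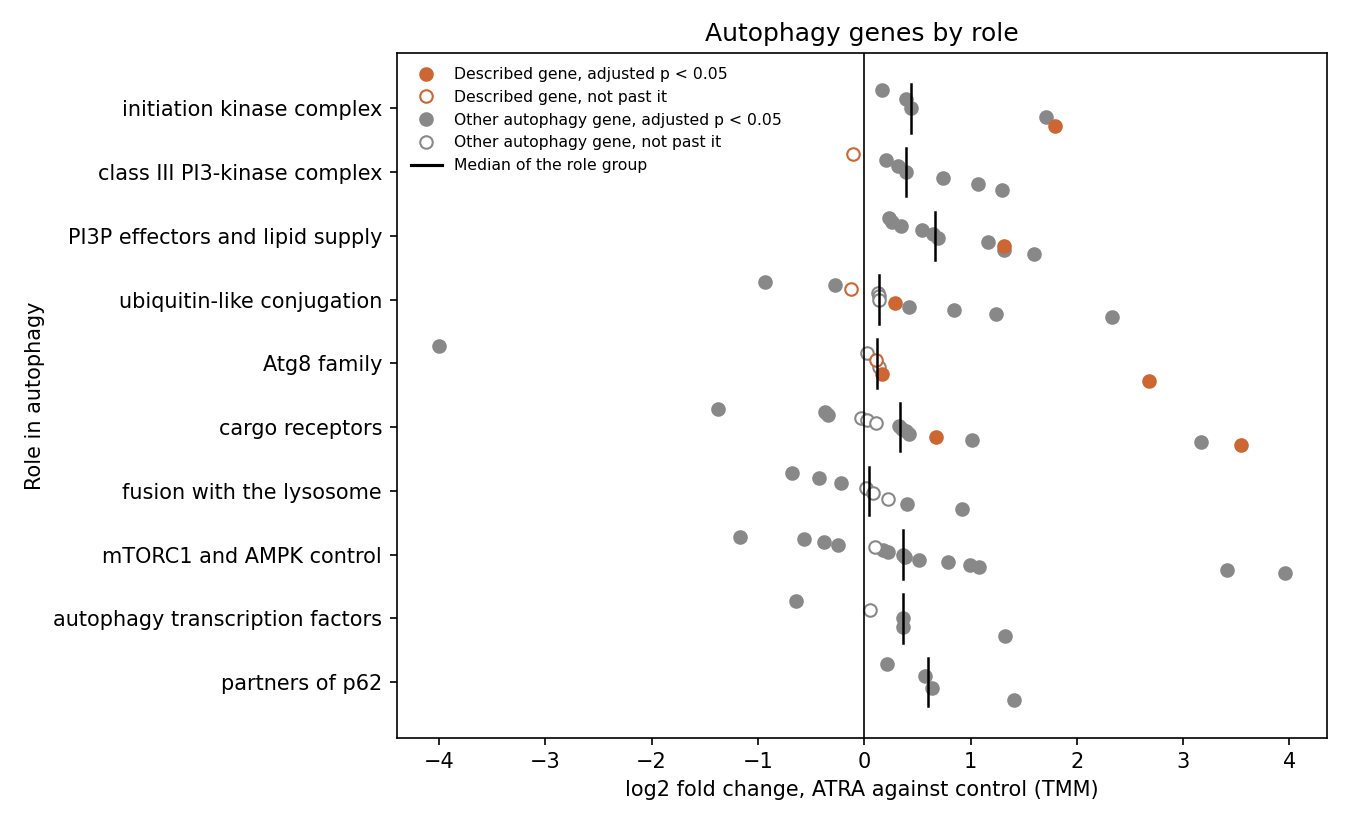
log₂FC (TMM) of 85 tested autophagy genes by role, with the 10 described genes in orange, the others in grey, filled where the adjusted p was under 0.05, and a line at each role's median. SQSTM1 at 3.55 and GABARAPL1 at 2.68 lie at the upper end of their roles, BECN1 at -0.11 at the lower end of its role, and MAP1LC3C at -4.00 apart from all other genes.

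The annotation in the deposited table assigns 8 of the 10 genes to the KEGG pathway Autophagy - animal, 7 to Mitophagy - animal, and 8 to the GO term autophagosome assembly. Of 131 tested genes of the KEGG autophagy pathway, 57 rose and 47 fell, with a median log₂FC of 0.0991. These shares of 43.5% and 35.9% lie near the 40.9% and 38.7% of all tested genes. Of 48 tested genes under autophagosome assembly, 28 rose and 6 fell (58.3% and 12.5%), with a median of 0.27. The Mitophagy - animal pathway had 31 genes higher and 16 lower of 62 (50% and 25.8%, median 0.33). The GO term macroautophagy had 25 higher and 12 lower of 50 (50% and 24%, median 0.23). By the fold rule 12% of its genes rose and 2% fell, beside 13.7% and 17.3% of all tested genes. The GO term autophagy of mitochondrion had 18 higher and 4 lower of 32 (56.2% and 12.5%, median 0.33).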

How the data were processed

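Per the labels, poly(A) RNA of 3 control and 3 ATRA-treated cultures was sequenced. The authors deposited raw counts per gene, cleaned their reads with fastp and TrimGalore, and name HISAT2, featureCounts and DESeq2 in their processing notes. Genome build, annotation and counting settings are not given in the sources used here, so how reads shared by overlapping genes or paralogs were counted is unknown. From these counts, genes were filtered with filterByExpr, TMM-scaled, and put through the robust quasi-likelihood test of edgeR on condition alone, two-sided, with Benjamini-Hochberg adjustment over 12588 genes (threshold 0.05). The prior count for log₂FC was 0.125, and standard errors are the absolute log₂FC over the root of F. Ratios used 0.5 added to each count. With at least 35532339 counts per library and at least 950 counts for any member, precision was set mainly by the number of libraries. The members and lists were chosen with earlier results of these data known. Genes named beyond the members are, in each role, up to 3 in each direction with the largest |log₂FC| above 1, an adjusted p under 0.05, at least 1 mean CPM and no overlap between groups. RB1CC1, ATG101, ULK2, TMEM41B, ATG10, ATG4A, MAP1LC3A, GABARAP, CALCOCO2 and TAX1BP1 were named after their values were seen. The same holds for PRKAA1, RHEB, MTOR, TFEB, TFE3, FOXO1, FOXO3, NFE2L2, TBK1 and TRAF6. PIK3R4 (7 rows share its symbol) and RETREG1 were not analysed here, and DEPTOR, with at most 2 counts, was filtered out. No pair of libraries in a group was alike within sampling noise (chi-square per degree of freedom 5.01 to 18.4). The highest values were those of ATRA replicate 2 against ATRA replicates 1 and 3 (18.4 and 17.3). ATRA replicates 1 and 3 had 5.01, and control pairs 6.13 to 8.94. Tests were checked on simulated data in which 200 of 12588 genes were changed, by a log₂FC of 1 or 2 in either direction. Of these, edgeR and DESeq2 each recovered 200 and R's t.test function 114. Unchanged genes called numbered 14, 19 and 2. Far more genes were called in the real data, so this check does not cover the choice of scaling. Nor does it cover changes smaller than those simulated, such as those of BECN1, MAP1LC3B and ATG12. Other scalings, filters, prior count and fold thresholds were tried, as were DESeq2, the t.test function of R on log2(CPM + 1), a block on replicate number and leaving out single libraries. Software was R 4.3.3, edgeR 4.0.16, DESeq2 1.42.0, Python 3.11.15 and matplotlib 3.10.9.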

Additional observations from a re-analysis of the deposited data

How the results depend on the processing

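SQSTM1, GABARAPL1, ULK1, WIPI1 and NBR1 kept their direction and passed an adjusted p of 0.05 under all 16 alternatives, ATG12 under 15 and MAP1LC3B under 11. BECN1 passed under 5, and GABARAPL2 and ATG5 under 2 each, library size alone among them, with the direction turned there for BECN1 and ATG5. With library size alone the log₂FC was 0.37 for BECN1 and 0.35 for ATG5. The number of members lower at adjusted p under 0.05 was 1 with RLE scaling, DESeq2 or R's t.test function in place of 0, and 0 to 2 over the libraries left out, the 2 arising without ATRA replicate 2. Members higher by the fold rule numbered 2 with |log₂FC| above 2 in place of 4. Over the 85 autophagy genes, 6 were lower with library size alone in place of 14, 30 rose by the fold rule in place of 19, and 1 fell in place of 3. Among all tested genes 2861 were lower by adjusted p with library size alone, in place of 4877. With |log₂FC| above 0.5, 31 of the autophagy genes rose and 7 fell, and with |log₂FC| above 2, 6 rose and 1 fell. Shares of all tested genes at these 2 thresholds, and by the fold rule with library size alone, are not given here. The counts therefore show only how the numbers moved with the setting. Leaving out each library moved the ratio of GABARAPL2 to MAP1LC3B between -0.10 and 0.0179 on the log2 scale. With the replicate number as a block 7 members and 55 listed genes were higher and 14 listed genes lower, the same numbers as without it. Same-numbered libraries had correlations of their deviations from -0.16 to 0.19, and 2 of 6 libraries correlated best with their own number, so the numbers were not taken as pairs. With 3 libraries per group the exact tests cannot pass 0.05.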

Other observations

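By position in the RefSeq table of goat assembly ARS1.2, which may differ from the annotation behind the counts, 4 of the 10 genes overlap another gene: SQSTM1 (C7H5orf45), WIPI1 (ARSG), BECN1 (CNTD1) and ATG12 (AP3S1). C7H5orf45 had 477, 522 and 515 counts in the control libraries and 4868, 1882 and 5153 in the ATRA libraries, in which SQSTM1 had 246281, 239163 and 246850 (C7H5orf45 log₂FC 2.56, standard error 0.497, edgeR, adjusted p = 0.00775). ATRA replicate 2 thus held fewer counts of the overlapping gene than the other ATRA libraries. CNTD1 had 7 to 15 counts per control library and 27 to 43 with ATRA, few beside the 2778 to 3768 counts of BECN1. AP3S1 had a log₂FC of -0.36 (edgeR, adjusted p = 5.73e-05) where ATG12 had 0.29, and ARSG had 0.29 (edgeR, adjusted p = 0.00929) where WIPI1 had 1.31. Among the nearest protein-coding genes on either side of the 10 members, 17 of 20 were tested, and 7 were higher and 9 lower with ATRA (edgeR, adjusted p under 0.05), beside 40.9% and 38.7% of all tested genes. Whether reads were divided between overlapping genes was not tested.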
